A study of Mus musculus with 24 samples.

Results

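The comparison set Myc-ER PKH-negative cells against uninfected PKH-negative cells and took in all 14382 genes of the deposited table for that contrast, which rests on 6 of the 24 libraries of the series. Both groups came from mammospheres, clusters of mammary cells grown in suspension, here in serum-free medium from the normal mammary gland of 7-week-old wild-type FVB/Hsd mice. The Myc-ER group (3 libraries) was sorted as PKH-negative, infected with the lentivirus L-pWPI-MycER and taken at passage 3, 72 h after plating. The uninfected group (3 libraries) was sorted as PKH-negative at passage 1 and its RNA came from the sorted cells. The header of the table calls both groups biological replicates, and describes the Myc-ER cells as both PKH high and negative, where the sample labels say negative. The labels name no ligand, and there was no empty-vector PKH-negative group, so the effect of Myc-ER cannot be told apart here from those of infection, passage and culture after the sort. Each gene has the mean normalised read count of a group and no value per library. Unsorted Myc-ER spheres (3 libraries) and unsorted empty-vector spheres (3 libraries), both from mice of the same kind and age at passage 3, are used for comparison. So are uninfected PKH-high cells at passage 1 (2 libraries).

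Myc is a transcription factor that pairs with Max and binds E-box sequences near the start of genes for ribosomes, nucleotide synthesis and growth. Myc-ER carries the ligand-binding domain of the oestrogen receptor fused to Myc, which holds the fusion inactive until a ligand binds. PKH is a membrane dye that is shared out at each division, so the cells of a sphere that lose it are those that have divided most, the progenitors, and the few that keep it are enriched for stem-like cells.

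All gene-level means, fold changes (log2) and adjusted p-values below are from the authors' deposited table. The ratio of means is log2((mean in Myc-ER PKH-negative + 1)/(mean in uninfected PKH-negative + 1)), and the fold change is the estimate of the authors' DESeq2 contrast, followed by ± the standard error that its p-value implies. A gene rose or fell where the authors' adjusted p was below 0.05. By that rule 2722 genes rose and 2666 fell, which are 18.9% and 18.5% of the genes listed (37.5% in all), and the median ratio over all listed genes was 0.03. A change of at least 1 on the log2 scale was seen in 1091 of the genes that rose and 1408 of those that fell. The group means summed to 45260932 in Myc-ER PKH-negative cells and 48054435 in uninfected PKH-negative cells. The p-values measure the spread between these libraries alone.

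The transgene was visible in the genes that make up the fusion. Esr1, the oestrogen receptor gene at chr10:4611593-5005614 (GRCm38), had a mean of 256081 in Myc-ER PKH-negative cells and 80.0 in uninfected PKH-negative cells. The fold change was 10.68 ± 0.36 (authors' adjusted p = 8.36e-191), and Esr1 alone held 0.566% of all counts in the Myc-ER group. Myc, at chr15:61985391-61990374, had a mean of 28517 with Myc-ER and 5996 without (2.03 ± 0.39, adjusted p = 2.36e-06). Per kilobase of exon, the Myc-ER group had 18745 counts at Esr1 and 10496 at Myc, and the uninfected group 5.86 at Esr1 and 2207 at Myc. Transgene and endogenous transcripts share these values. The exon length used is that of the whole gene, while the fusion carries only a part of Esr1. The values per kilobase therefore do not compare Esr1 with Myc on equal terms. Genes of the oestrogen response did not move in 1 direction: 2 of 16 listed members rose and 7 fell, beside 18.9% and 18.5% of all listed genes. Greb1 (115 against 38.8) and the growth-factor-binding protein gene Igfbp4 (1534 against 449) rose. The progesterone receptor Pgr, with means of 3.27 with Myc-ER and 18.7 without, was among those that fell.

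Among the proteins that pair or compete with Myc, the antagonist Mxd1 fell to a mean of 431 in Myc-ER PKH-negative cells, against 1349 in uninfected PKH-negative cells, and Mnt, another repressor of the network, to 2520 against 3537. Max, the obligate partner, had means of 5224 with Myc-ER and 5372 without and did not pass (adjusted p = 0.822). The E-box factor Tfap4 rose (1100 against 324), as did the helicases Ruvbl1 (4313 against 2062) and Ruvbl2 (6692 against 2670), and the glucose-sensing factor Mlxipl (250 against 61.3). In all, 6 of 18 listed members of the network rose and 3 fell, beside 18.9% and 18.5% of all listed genes. Myc, whose value is shared with the transgene, is counted among the 6.

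**Figure D1:**
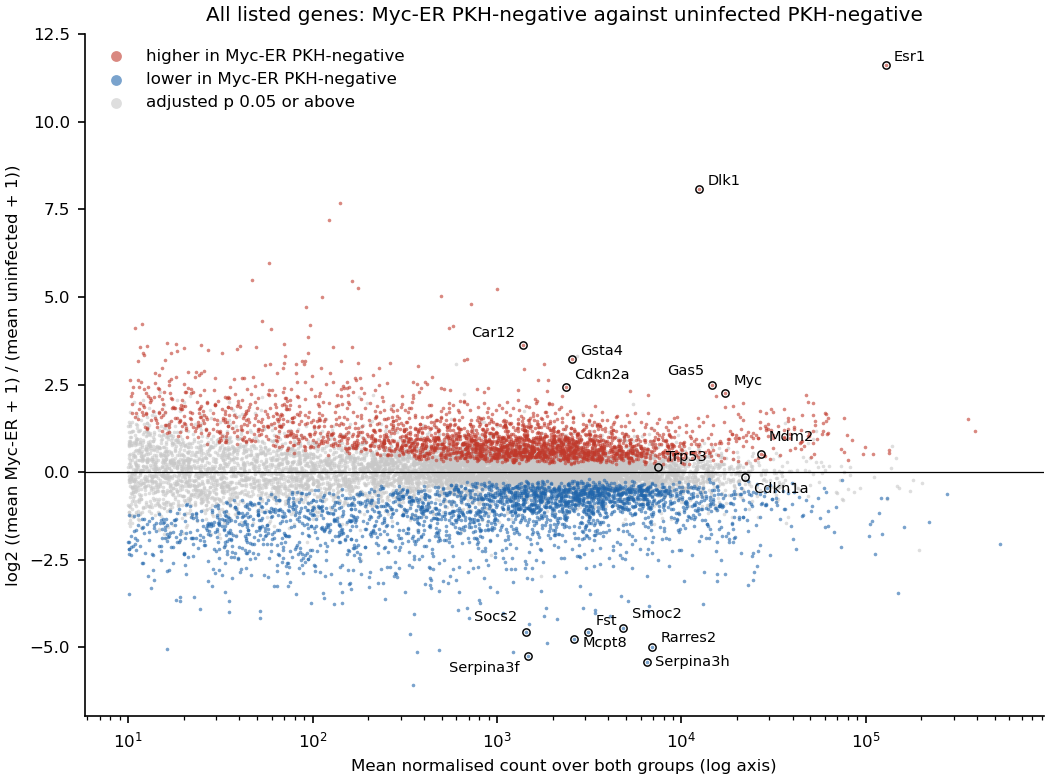
Each point is 1 of the 14382 genes of the deposited table. The x axis is the mean normalised count over both groups on a log axis and the y axis the log2 ratio of the group means, Myc-ER PKH-negative over uninfected PKH-negative; red genes rose, blue genes fell and grey genes had an adjusted p of 0.05 or above. Esr1 (ratio 11.63) and Dlk1 (8.08) stand above all other well-expressed genes, and Serpina3h (-5.43) and Rarres2 (-4.98) are among the lowest.

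Of the genes that rose or fell, the better-expressed ones (average of both means at least 1172, their median) were ranked by ratio, and the 12 largest increases were mixed in function. Behind Esr1 came Dlk1, a Notch-like membrane protein of progenitor cells, with a mean of 24799 in Myc-ER PKH-negative cells and 90.4 in uninfected PKH-negative cells. Its ratio of means was 8.08, while the authors' fold change was only 2.63 ± 0.66 (adjusted p = 0.000436), the widest such gap among the genes named here; over all genes that rose or fell, the ratio exceeded the fold change by more than 1 in 23. The carbonic anhydrase gene Car12 followed (2555 against 208), then the glutathione transferase gene Gsta4 (4614 against 490), the MAP kinase phosphatase gene Dusp9 (3219 against 379) and the RNA-binding protein gene Mex3a (2473 against 322). The matrix protein gene Matn2, the mitochondrial nucleoside diphosphate kinase gene Nme4 and the adrenergic receptor gene Adra2a also rose, to 3243, 2862 and 2181 with Myc-ER, against 522, 461 and 428 without. Rian, a long noncoding RNA of the imprinted Dlk1 region, had 8712 with Myc-ER and 1743 without. Cdkn2a, which encodes the cell-cycle inhibitor p16 and the Mdm2-binding protein Arf at chr4:89274471-89294653, had means of 3968 with Myc-ER and 734 without (2.25 ± 0.35, adjusted p = 3.96e-09). The table gives 1 value per gene and does not separate those transcripts.

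The largest decreases were led by serine protease inhibitors of the Serpina3 family. Serpina3h had a mean of 293 in Myc-ER PKH-negative cells and 12668 in uninfected PKH-negative cells (-5.30 ± 0.20, adjusted p = 1.36e-152), Serpina3f 75.0 against 2872 and Serpina3i 66.2 against 2363. The chemokine-like adipokine gene Rarres2 fell to 424 with Myc-ER, against 13399 without, and the adhesion receptor gene Gpr133 to 121 against 3596. Fst, the activin inhibitor follistatin, fell to 252 against 5937, and Socs2, a feedback inhibitor of growth hormone and cytokine signalling, to 116 against 2746. The basophil protease gene Mcpt8 (185 against 5058), the matrix gene Smoc2 (420 against 9273), the membrane protein gene Islr2 (139 against 2833), the hypoxia-induced gene Ndufa4l2 (218 against 4024) and the vasodilator peptide gene Adm (451 against 7740) complete the 12.

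**Figure D2:**
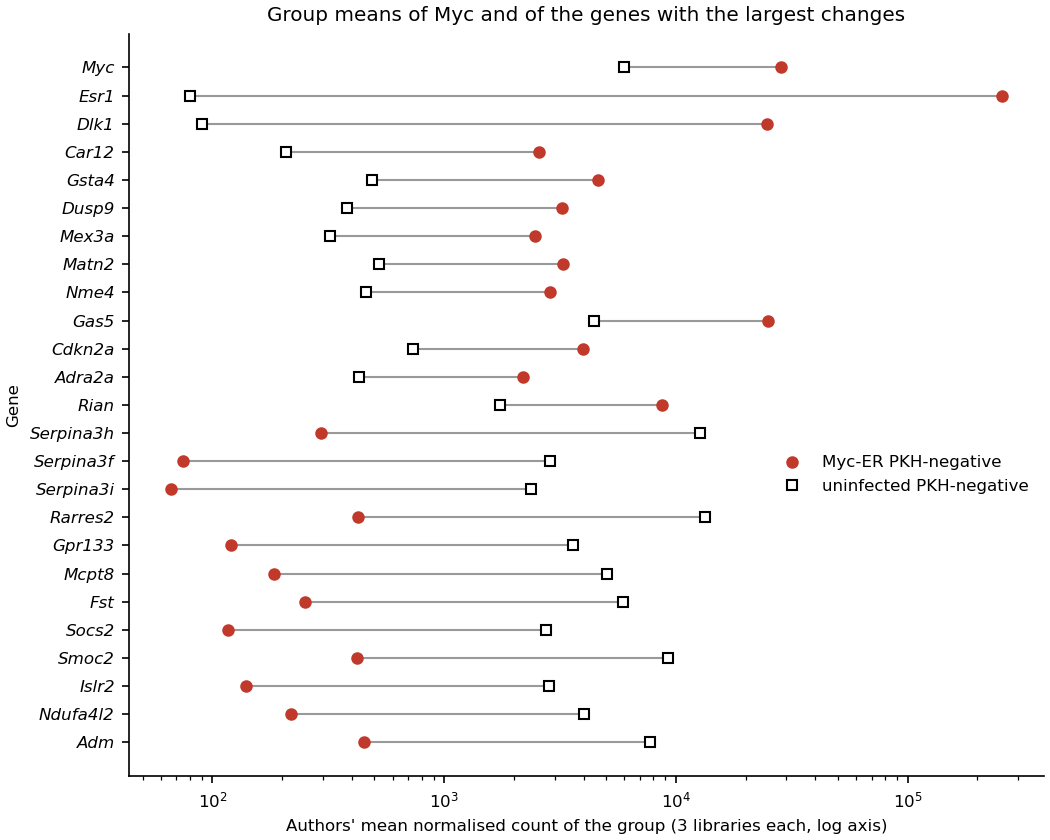
Mean normalised counts (log axis) of Myc, the 12 largest increases and the 12 largest decreases, with Myc-ER PKH-negative cells as red circles and uninfected PKH-negative cells as open squares; each symbol is the authors' mean of 3 libraries and no spread per library is in the table. The means of the increases other than Esr1 and Dlk1 differ by 5.00 (Rian) to 12.3 times (Car12), those of the decreases by 17.2 (Adm) to 43.2 times (Serpina3h).

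Genes for building ribosomes rose as a group. By the authors' adjusted p, all 44 listed ribosome biogenesis genes were higher with Myc-ER, with a median ratio of 0.98 and a range from 0.54 to 1.65, against 18.9% of all listed genes higher. Nucleolin, Ncl, had a mean of 92010 in Myc-ER PKH-negative cells and 29217 in uninfected PKH-negative cells, and nucleophosmin, Npm1, 113752 against 39034. The rRNA methyltransferase gene Fbl had 10764 against 4057, the rRNA pseudouridine synthase gene Dkc1 5773 against 2070 and the U3 snoRNP gene Rrp9 3759 against 1398. Of the subunits and factors of RNA polymerases I and III, which transcribe rRNA and tRNA, 15 of 25 rose and none fell, among them Polr1b (3362 against 1359) and Polr3g (800 against 350). All 44 listed cytosolic ribosomal protein genes rose too (median 1.20), with Rps14 at 77717 with Myc-ER against 16884 without. Ribosomal protein genes have many near-identical copies in the genome, so these values are less certain than the others.

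The rest of the protein-making machinery moved the same way in part, against 18.9% of all listed genes higher and 18.5% lower. Of the mitochondrial ribosomal proteins 23 of 32 rose and of the translation initiation and elongation factors 18 of 28, with Eef1a1, which brings tRNA to the ribosome, at a mean of 540166 with Myc-ER and 237989 without. Among tRNA-charging enzymes 23 of 35 rose. Of the chaperonins and mitochondrial chaperones 13 of 14 rose, among them the mitochondrial chaperonins Hspd1 (39573 against 19440) and Hspe1 (14251 against 4746) and the cytosolic chaperonin subunit gene Cct2 (25671 against 12055). No listed member of these 4 lists fell. Folding genes of the endoplasmic reticulum, in the stress and unfolded protein response list, did not follow: none of its 21 listed members rose and 5 fell, and the chaperone gene Hspa5 had 63092 with Myc-ER and 51488 without (adjusted p = 0.349). Of the genes that host small nucleolar RNAs in their introns, a list chosen after the values were seen, 7 of 9 rose, with Gas5 at 24945 with Myc-ER against 4445 without (2.05 ± 0.50, adjusted p = 0.000287), Snhg7 at 371 against 53.9 and Snhg12 at 2590 against 611.

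Enzymes of nucleotide synthesis and respiration were also higher, against 18.9% of all listed genes higher and 18.5% lower. Of 28 purine and pyrimidine synthesis genes 17 rose and none fell (median 0.84). Cad, which starts pyrimidine synthesis, had a mean of 9634 with Myc-ER and 3997 without, the purine enzyme gene Gart 6488 against 3016, and Impdh2, which commits purines to guanine nucleotides, 11580 against 5558. Ribonucleotide reductase, which makes the precursors of DNA, did not follow: the ratio was 0.19 for Rrm1 and -0.49 for Rrm2, and neither passed. The folate carrier gene Slc19a1 rose to 2630 with Myc-ER, against 649 without, in a list where 8 of 21 rose and 2 fell. Of 33 oxidative phosphorylation genes 24 rose, all 33 ratios were above 0 and the median was 0.56, with cytochrome c, Cycs, at 10498 against 5197. The polyamine enzymes Sms (2835 against 859) and Srm (8783 against 3263) rose, whereas Odc1, the first enzyme of that path and a textbook Myc target, singled out here after its values were seen, had means of 21122 with Myc-ER and 20580 without (0.03 ± 0.35, adjusted p = 0.95).

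Windows of 250 bases before the RefSeq start sites (GRCm38.p6) were read for the E-box CACGTG, which is its own reverse complement, in a search made after the values were seen. It was in 6.02% of all 32851 windows and 8.12% of those of listed genes, in 10.2% of windows of genes that rose and 7.2% of those that fell. Of 42 windows of ribosome biogenesis genes 2 held it and of 31 windows of purine and pyrimidine genes 6. It was in none of the 9 windows of snoRNA host genes, which mostly rose, and in 5 of 41 windows (12.2%) of the glycolysis and hypoxia genes, which mostly fell. A gene with a match from the purine and pyrimidine list and another from the ribosome biogenesis list are shown with the E-box in capitals. Other lists with matches, such as glycolysis and hypoxia, are not shown for this motif. Impdh2 is at chr9:108560186-108560435 on the plus strand. Nop2, an rRNA methyltransferase gene (6741 with Myc-ER against 4005 without), is at chr6:125131633-125131882 on the plus strand.
Impdh2: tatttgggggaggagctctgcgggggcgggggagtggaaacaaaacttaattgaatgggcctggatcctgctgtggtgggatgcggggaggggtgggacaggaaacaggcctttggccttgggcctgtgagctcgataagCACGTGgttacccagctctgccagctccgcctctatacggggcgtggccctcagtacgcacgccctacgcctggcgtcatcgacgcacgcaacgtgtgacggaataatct
Nop2: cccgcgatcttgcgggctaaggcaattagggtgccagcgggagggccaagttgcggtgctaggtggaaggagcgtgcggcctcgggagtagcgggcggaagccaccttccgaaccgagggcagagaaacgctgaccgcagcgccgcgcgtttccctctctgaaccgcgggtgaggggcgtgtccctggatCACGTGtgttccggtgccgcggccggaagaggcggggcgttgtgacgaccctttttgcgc
The E-box begins 110 bases before the start site in Impdh2 and 60 bases before it in Nop2. A match is a description of the sequence and no evidence of binding.

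**Figure D3:**
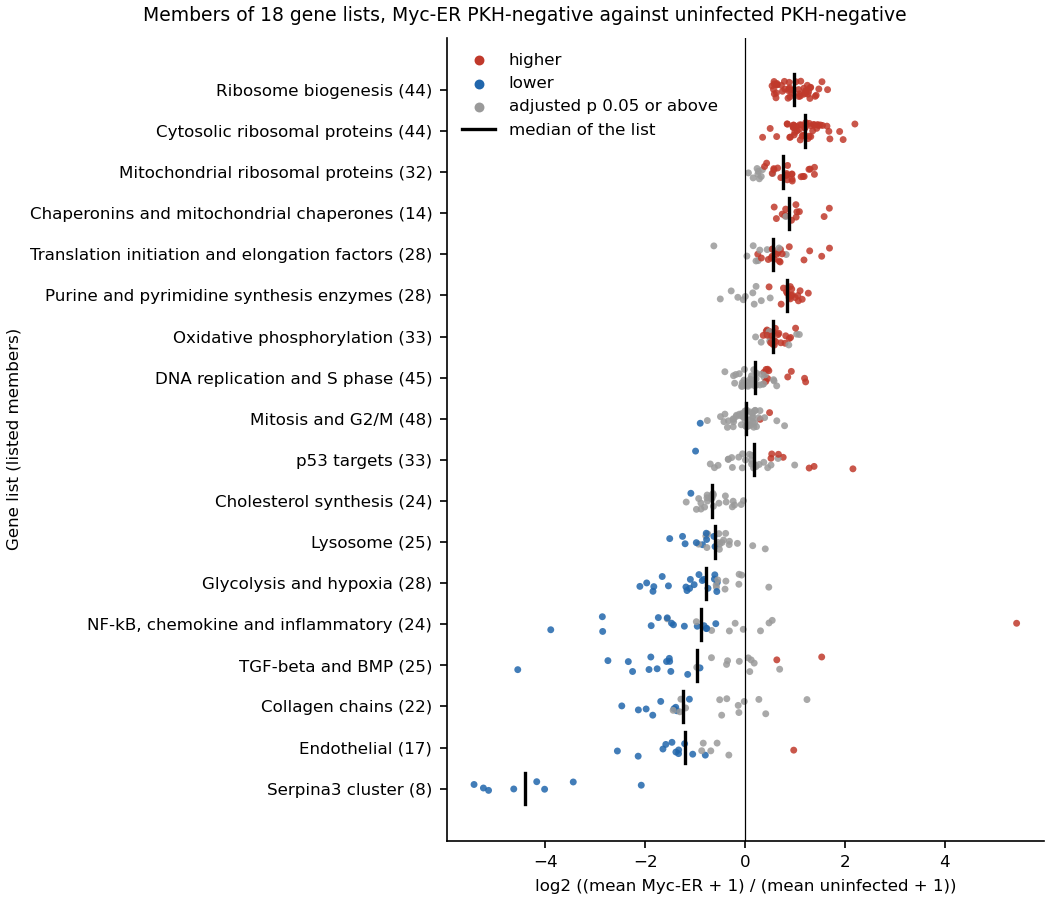
Log2 ratio of the group means (x axis) for the listed members of 18 gene lists (y axis, number of members in brackets); each point is a gene, red where it rose, blue where it fell and grey where the adjusted p was 0.05 or above, and the black bar is the median of the list. The ribosome lists are wholly to the right of 0, the mitosis list is centred on it (median 0.02) and the Serpina3 genes are wholly to the left (median -4.40).

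Mitosis genes did not rise with the growth genes, and replication genes rose only in part, where 18.9% of all listed genes rose and 18.5% fell. Of 48 listed mitosis genes 2 rose (Pttg1 and Bub3), 1 fell (Nusap1, 967 with Myc-ER against 1801 without) and the median ratio was 0.02. The ratios ran from -0.90 to 0.79, and the 45 genes that did not pass may still differ singly. The proliferation marker Mki67 had a mean of 7268 in Myc-ER PKH-negative cells and 8557 in uninfected PKH-negative cells (adjusted p = 0.8), the mitotic kinase gene Plk1 2114 against 2114 and Cdk1 4294 against 3984. Of 45 genes of DNA replication 10 rose and none fell, with 33 ratios above 0 and a median of 0.20. The polymerase subunit gene Pold2 (2716 against 1169), Rpa3 (746 against 326) and Gins1 (561 against 294) were among those that rose, while the sliding clamp gene Pcna had 11304 against 11443. Of 28 cyclin, CDK and E2F genes 3 rose, among them the cyclin D partner gene Cdk4 (22577 against 15254), and 2 fell, the D cyclin gene Ccnd3 (4072 against 6609) and Ccng2 (1004 against 3468). The inhibitors Cdkn2d (312 against 1257), Cdkn1c (363 against 1164) and Cdkn2c (311 against 656) fell, in contrast to Cdkn2a, so that of 7 listed CDK inhibitor genes 1 rose and 3 fell. Cdkn1a, the inhibitor p21, had 21035 against 22940 and did not pass (adjusted p = 0.486).

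The p53 gene itself did not pass: Trp53 had means of 7794 with Myc-ER and 7035 without (0.15 ± 0.16, adjusted p = 0.499), and Mdm2, which degrades p53 and is its target, rose to 31678 against 22071 (0.51 ± 0.17, adjusted p = 0.00768). Of 33 listed p53 targets 7 rose and 1 fell, with a median ratio of 0.17, beside 18.9% higher and 18.5% lower over all listed genes. The death gene Bbc3 (Puma) rose to 1424 with Myc-ER, against 545 without, and Trp53inp1 to 11647 against 4774, while Pmaip1 (Noxa) fell to 1095 against 2175.

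Glycolysis and hypoxia genes were lower with Myc-ER in 19 of 28 cases and higher in none, against 18.5% of all genes lower, with a median ratio of -0.78. Pgk1, an enzyme of glycolysis, had a mean of 32108 in Myc-ER PKH-negative cells and 92936 in uninfected PKH-negative cells, lactate dehydrogenase, Ldha, 48811 against 72160, and Aldoc 152 against 656. The mitophagy gene Bnip3 fell to 3053 with Myc-ER, against 10952 without, the collagen-modifying enzyme gene P4ha2 to 2376 against 8428, the oxygen sensor gene Egln3 to 499 against 1578 and Hif1a, the hypoxia factor itself, to 8174 against 16556. Gapdh, often used as a reference gene, had 69031 against 102991 and did not pass (adjusted p = 0.0738). The core of the hypoxia response element, ACGTG on either strand, which also lies within every CACGTG, was in 20 of the 41 windows of these genes (17 of 27 genes), compared with 16.6% of all windows and 21.1% of windows of listed genes. It was in 23.2% of windows of genes that rose and 19.3% of those that fell. Among lists that mostly rose, it was in 4 of 9 windows of snoRNA host genes, 28.2% of those of cytosolic ribosomal proteins and 11.9% of those of ribosome biogenesis genes. The windows of P4ha2 (chr11:54100674-54100923, plus strand) and Egln3 (chr12:54203875-54204124, minus strand), both lower with Myc-ER, are shown with the core in capitals.
P4ha2: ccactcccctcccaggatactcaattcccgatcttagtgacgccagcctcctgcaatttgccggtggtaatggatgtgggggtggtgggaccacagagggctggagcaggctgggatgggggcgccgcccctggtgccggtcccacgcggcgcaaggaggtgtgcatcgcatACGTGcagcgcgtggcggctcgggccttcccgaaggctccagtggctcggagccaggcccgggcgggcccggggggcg
Egln3: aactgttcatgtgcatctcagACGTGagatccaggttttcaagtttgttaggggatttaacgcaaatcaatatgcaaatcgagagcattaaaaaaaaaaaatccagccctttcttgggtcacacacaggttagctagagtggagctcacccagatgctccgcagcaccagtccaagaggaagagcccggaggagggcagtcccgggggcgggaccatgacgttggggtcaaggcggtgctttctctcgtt
The capitals begin 78 bases before the start site in P4ha2 and 229 bases before it in Egln3.

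The Serpina3 genes form a cluster on chromosome 12, with the members listed here between chr12:104146382-104153870 (Serpina3c) and chr12:104406729-104414329 (Serpina3n). The list was added after the values were seen. All 8 listed members fell, with ratios from -2.08 to -5.43, and their summed means were 26181 with Myc-ER and 300160 without. Serpina3n, a secreted acute-phase protein gene, made up most of this: its mean was 25220 in Myc-ER PKH-negative cells and 273710 in uninfected PKH-negative cells (-3.34 ± 0.22, adjusted p = 1.14e-49). The members are near-identical copies, GENCODE classes Serpina3h as a transcribed pseudogene and the models of Serpina3k and Serpina3m overlap, so how reads were split between them is uncertain.

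Inflammatory genes were lower in more cases than not, against 18.5% of all listed genes lower and 18.9% higher. Of 24 listed NF-kB, chemokine and inflammatory genes 14 fell, among them the neutrophil chemokines Cxcl1 (7326 with Myc-ER against 20323 without), Cxcl2 (1659 against 5528) and Cxcl5 (233 against 3466), the acute-phase gene Saa3 (6003 against 43509) and the factor gene Nfkb2 (2543 against 4933). Only the T-cell chemokine gene Ccl5 rose in that list, with means of 319 with Myc-ER and 6.36 without. Of the 8 Socs family genes, feedback inhibitors of cytokine signalling in a list added after the values were seen, 3 fell (Socs2, Socs3 with 2358 against 7991, and Socs5 with 3665 against 5740), none rose and 5 did not pass. The interferon list had 4 of 32 higher and 6 lower, near or below the shares over all listed genes (18.9% and 18.5%). Cxcl10 (969 against 28.8), Mx1 (173 against 15.6), Rsad2 (2609 against 658) and Ifit1 (6929 against 3635) rose, while Oas3 (948 against 3178), Oas2 (2214 against 6821) and Stat2 (3464 against 7707) were among those that fell. Il1rl1, the receptor of interleukin 33, had 27014 with Myc-ER and 118845 without.

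Matrix and growth-factor genes were lower in part, against 18.5% of all listed genes lower and 18.9% higher. Of 22 collagen genes 9 fell and none rose (median -1.24), with Col5a3 at 8492 in Myc-ER PKH-negative cells and 30560 in uninfected PKH-negative cells. Of 17 matrix proteases and their inhibitors 8 fell, among them Mmp19 (15022 against 68129) and Timp1 (16867 against 63640), and Mmp11 (2585 against 885) and Mmp12 (61.8 against 32.3) rose. In the TGF-beta and BMP list 13 of 25 fell. The ligand Tgfb1 (2754 against 7712), its receptor gene Tgfbr2 (6632 against 22454) and Id2 (627 against 2381) were among them, while another ligand gene, Bmp2 (2044 against 704), and Id1 (1229 against 789) rose. The receptors of growth factors Egfr (5142 against 19892) and Pdgfrb (10098 against 42938) fell, as did Igf1 (646 against 2630). Of the immediate early genes, which also mark the stress of cell dissociation, 9 of 25 fell, among them Egr2 (1808 against 7456), Dusp1 (5770 against 21297) and Junb (6858 against 16806). Myc, whose value is shared with the transgene, was the 1 that rose. The uninfected RNA was labelled as from sorted cells and the Myc-ER RNA as from sphere culture, and this difference in handling cannot be told apart from Myc-ER.

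Epithelial markers had low means in both groups of the authors' deposited table. Epcam, the epithelial adhesion gene, had means of 83.1 in Myc-ER PKH-negative cells and 78.5 in uninfected PKH-negative cells, Cdh1 (E-cadherin) 63.2 against 71.4, the luminal keratin Krt8 154 against 176 and Krt18 211 against 134, and the basal genes Krt14 15.8 against 27.3 and Trp63 17.6 against 19.6; Krt5 is not listed. None of these passed, against 18.9% of all listed genes higher and 18.5% lower. Other members of the same lists did. Of 22 luminal genes 2 rose, Areg and Esr1, and the value of Esr1 is shared with the transgene. The 6 luminal genes that fell included Prom1 (302 against 1247) and Ly6a (11299 against 27293). Of 18 basal genes 2 rose (Igfbp4 and Jag2) and 5 fell, among them the smooth muscle actin gene Acta2 (66.4 against 286) and Itgb4 (59.4 against 135). Per kilobase of exon, Epcam was at percentile 23.1 of the listed genes with Myc-ER and 21.9 without, while the genes Vim, Col3a1 and Pdgfra, which mark mesenchymal cells, were near the top in both groups (Vim 99.6 and 99.7, Col3a1 97.7 and 96.6, Pdgfra 95.7 and 96.1). Both groups thus had low counts of epithelial markers and high counts of mesenchymal ones, and the spheres are called here by their sort. In such bulk RNA, fewer cells of a type and less RNA per cell cannot be told apart.

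Markers of other cells also moved between the groups, where 18.9% of all listed genes rose and 18.5% fell. Of 17 listed endothelial genes 11 fell and 1 rose, with a summed mean of 5108 in Myc-ER PKH-negative cells and 11689 in uninfected PKH-negative cells. Of 12 mast cell and basophil genes 4 fell and none rose (summed mean 30165 against 129721, mostly Il1rl1), but the defining receptor genes Fcer1a (26.0 against 12.3) and Kit (677 against 667) did not pass. Of 20 fibroblast genes 8 fell, among them Mfap5 (749 against 9516) and Postn (1461 against 8015). The 1 that rose was Pi16 (3.98 times higher with Myc-ER). The other 11 did not pass, among them Col3a1 (1.33 times higher). Of 21 macrophage genes 12 were listed, with Ptprc (CD45) higher (99.1 against 11.02) and Csf1r lower (55.1 against 167); C1qa, Adgre1 and Tyrobp are not listed. Of 17 lymphocyte genes 6 were listed and 3 rose, all with low means: Cd3g (23.4 against 0.291), Cd8a (30.3 against 3.92) and Il7r (37.1 against 15.6). Only genes with a mean above 10 are listed, and Cd3g and Cd8a reached that through the Myc-ER group alone. The filter thus favoured a rise, and these counts are no evidence of lymphocytes. The part of these cell types in the other results was not tested.

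**Figure D4:**
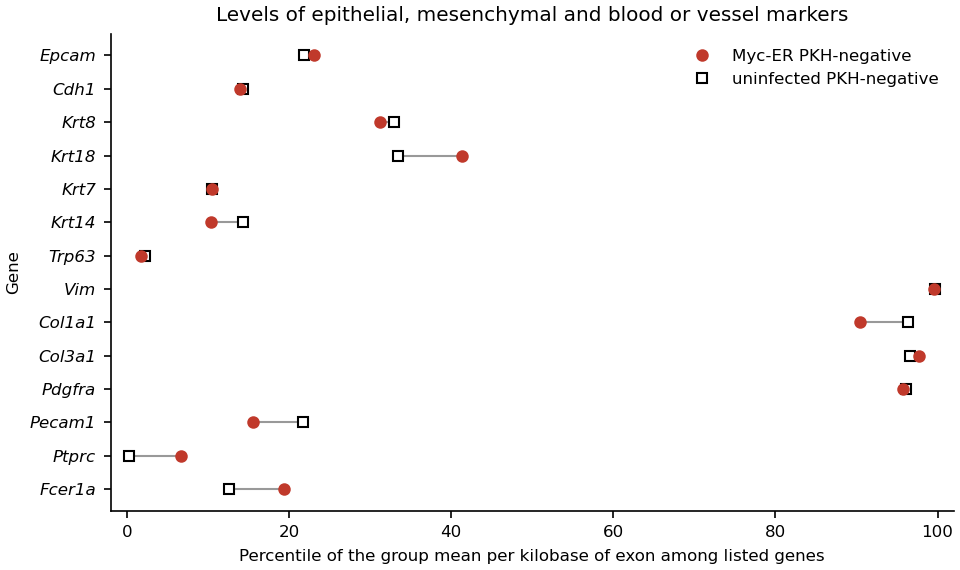
Percentile of the group mean per kilobase of exon among the listed genes (x axis) for 14 marker genes (y axis), with Myc-ER PKH-negative cells as red circles and uninfected PKH-negative cells as open squares. The epithelial genes Epcam to Trp63 lie below percentile 42 in both groups and Vim, Col1a1, Col3a1 and Pdgfra above percentile 90.

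Stem and progenitor associated genes showed no common direction, where 18.9% of all listed genes rose and 18.5% fell. Of 18 listed members 2 rose, the self-renewal gene Bmi1 (2932 with Myc-ER against 1856 without) and Etv5 (3488 against 2298), and 6 fell, among them Aldh1a1 (301 against 3174), the Wnt target Axin2 (60.5 against 273) and the integrin Itgb3 (3976 against 12083). Of 18 listed Notch pathway genes 1 rose, the ligand Jag2 (162 against 95.5), 6 fell and 11 did not pass. The Notch targets Heyl (11.5 against 117), Hey2 (14.3 against 82.5) and Hey1 (5.54 against 20.5) fell. Numb (918 against 1515) and Numbl (967 against 3069), which restrain Notch and are known for their part in unequal divisions, also fell. The target Hes1 had 277 against 395 and did not pass (adjusted p = 0.0891).

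The same virus was also used in unsorted spheres. The header of that table calls its controls only normal spheres of wild-type mice; they were taken here to be the empty-vector libraries, the 1 unsorted wild-type group besides Myc-ER in the labels, and on that reading the contrast shares no library with this one. Over the 13431 genes listed in both tables, the authors' fold changes had Pearson's r = 0.62 and Spearman's rho = 0.65 across genes, which are not independent replicates. Of the 2558 shared genes that rose here 72.0% also rose in unsorted spheres, and 49.9% of the 3693 that rose there rose here; of the 2537 that fell here 60.7% also fell there, and 47.9% of the 3213 that fell there fell here. The difference of the fold changes was tested gene by gene from their standard errors with a two-sided normal test and Benjamini-Hochberg adjustment over all shared genes. It passed for 859 genes (6.4%), with 341 higher (2.54%) and 518 lower (3.86%) in PKH-negative cells. The authors' fold changes here were smaller in size than the ratio of means by over 1 in 23 called genes, Dlk1 among them. The part of such gaps in the differences was not tested. The controls of these contrasts differ in infection, sort and passage, which cannot be told apart from the sort of the Myc-ER cells.

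The contrasts were set side by side list by list from the authors' deposited tables. In unsorted spheres 46 of 48 mitosis genes rose, against 26.7% of all genes there (24.1% fell and 50.8% did either), and all 48 differences were below 0, with a median of -1.36, but only 3 passed singly (Spc25, Ube2c and Nek2). Espl1, the protease that splits sister chromatids, had a fold change of 0.24 here and 1.89 there. Of the replication genes 10 of 45 differences passed, all lower here. In the ribosome biogenesis list all 44 rose in both contrasts, and 3 differences passed, all lower here; Ncl had fold changes of 1.63 ± 0.17 here and 1.63 ± 0.16 in unsorted spheres. Of the glycolysis and hypoxia genes 11 of 28 differences passed, all lower here, as with Pgam1 (fold changes of -0.92 here and -0.02 there, adjusted p of the difference 3.52e-07). Odc1 had 22008 with Myc-ER and 5531 with the empty vector in unsorted spheres (1.97 ± 0.17), and the difference, -1.93 ± 0.39, passed (adjusted p = 8.79e-05).

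**Figure D5:**
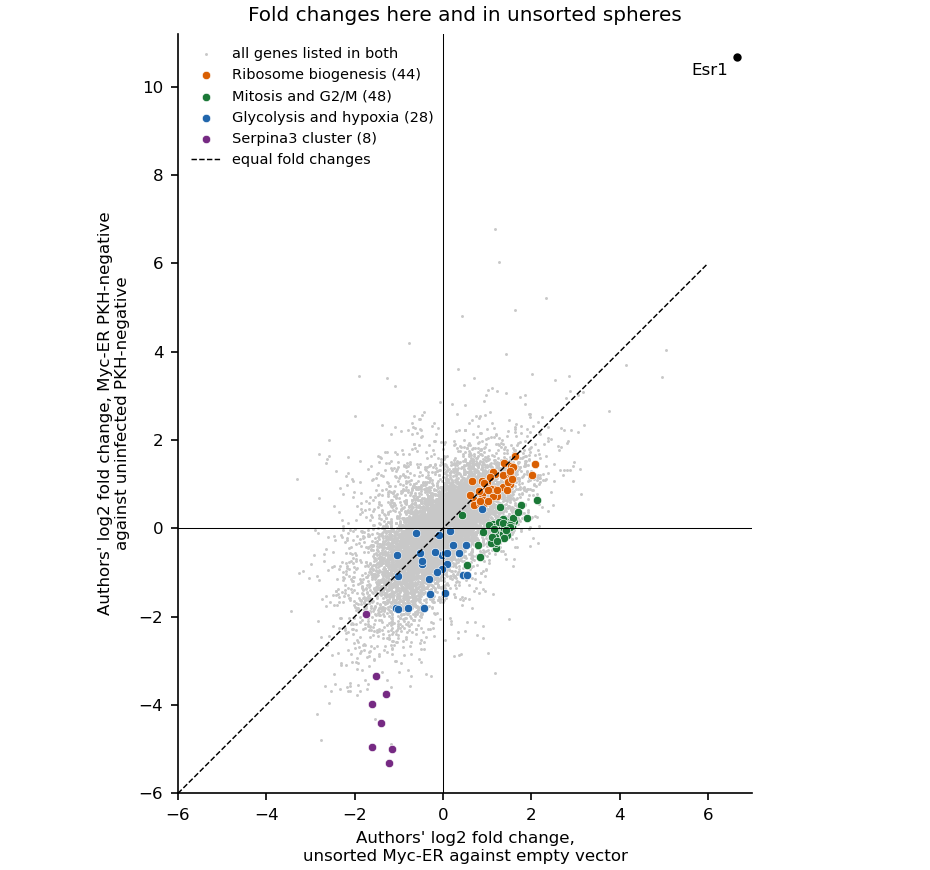
Authors' log2 fold change in unsorted spheres (x axis, Myc-ER against empty vector) and in PKH-negative cells (y axis, Myc-ER against uninfected) for the 13431 genes listed in both tables; the dashed line marks equal values. Ribosome biogenesis genes lie near the line, all 48 mitosis genes lie below it near 0 on the y axis, and the Serpina3 genes reach -5.30 on the y axis (Serpina3h) while none is below -1.74 on the x axis.

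Uninfected PKH-high cells had been compared with the same uninfected PKH-negative libraries, so their values are given only side by side. There 45 of 48 mitosis genes and 23 of 28 glycolysis and hypoxia genes were lower in PKH-high than in PKH-negative cells, of 13959 genes of which 15.1% were lower. Ribosome biogenesis had no gene higher and 4 lower in PKH-high cells, where all 44 rose with Myc-ER. Pgk1 had a fold change of -1.48 ± 0.24 with Myc-ER and -1.41 ± 0.14 in PKH-high cells, and Serpina3f -4.94 ± 0.30 with Myc-ER and -2.69 ± 0.16 in PKH-high cells.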

How the data were processed

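RNA-seq libraries of polyA RNA (TruSeq v2) were compared between 3 Myc-ER PKH-negative and 3 uninfected PKH-negative samples. The authors deposited, per the file headers, the mean normalised count of each group (a signal with no value per library), a log2 fold change, a p-value and an adjusted p-value per gene, for genes with a mean above 10. A gene with a mean below 10 in a group, such as Cd3g, Pgr or Hey1, was listed through the other group alone. The submitters' processing notes name CASAVA 1.9, TopHat2 2.0.8, Bowtie2 2.1.0, SAMtools 0.1.18, HTSeq 0.5.3p9, DESeq2 1.10.1 and mm10; whether counting used strand is not stated in these notes, so reads of overlapping and antisense genes cannot be told apart.

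With group means alone, no test across libraries could be run here, and the depth of each library is unknown. The adjusted p-values equal a Benjamini-Hochberg adjustment recomputed from the deposited p-values. Standard errors were taken from the fold change and the normal quantile of its p-value, and differences from unsorted spheres from both, which was tested on simulated data. Those data were drawn with normal errors of these same sizes, so they could not show whether such errors hold for the real libraries. Tables were normalised separately: PKH-negative means differed between 2 tables by a near-constant factor (log2 ratio -0.121763 to -0.120439, 1st to 99th percentile of 13434 genes). Symbols matched 1 gene of GENCODE M21 for 13501 genes, which gave positions and exon lengths; promoter windows are from RefSeq.

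The comparison and 53 gene lists were chosen with earlier results of these data known, and 4 lists (Serpina3 cluster, Socs family, snoRNA host genes, imprinted genes) were added after the values were seen. Named genes were Myc, Esr1, Trp53, Cdkn1a, Mdm2 and Cdkn2a, the 12 largest changes in each direction among called genes no less expressed than their median, and the largest of each list; others were singled out after their values were seen. Python 3.11.15, pandas 2.3.3, numpy 2.4.6, scipy 1.17.1 and matplotlib 3.10.9 were used.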

Additional observations from a re-analysis of the deposited data

Results flagged for a closer look

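The fold change in PKH-negative cells minus that in unsorted spheres, by the normal test with Benjamini-Hochberg adjustment over 13431 genes, passed for 859 genes. The values of single genes are differences of log2 fold changes in the authors' deposited tables. The largest lower differences were at Serpina3h (-4.09), the organic anion transporter gene Slco4a1 (-3.19), the transcription cofactor gene Vgll3 (-2.82), glutaredoxin, Glrx (-2.65), Crispld2 (-2.52), Cxcl1 (-2.38), Il1rl1 (-2.27) and the fatty acid binding protein gene Fabp4 (-2.27). The largest higher differences were at Esr1 (4.03), the growth factor gene Mdk (2.72), the matrix gene Tgfbi (2.63), the cholesterol exporter gene Abca1 (2.45), Mmp11 (2.37), the lipoprotein gene Apoe (2.30), the enkephalin precursor gene Penk (2.22) and Col15a1 (2.21). Mdk rose here (3089 with Myc-ER against 624 without), and Glrx fell (2381 against 10800).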

How the results depend on the processing

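Alternatives were a pseudocount of 0 or 10, a fold change of at least 1, adjusted p-values below 0.01 or 0.1, a mean of at least 100, centring on the median and the authors' fold change in place of the ratio of means. Centring and the authors' fold change left the adjusted p-values as they were, so a total of called genes could not change under them. These settings gave 21 and 18 of the main results below, all classed as the same. Of 1092 values of named genes 1048 were classed as the same and 0 as reversed. That class also held 81 of 90 main results and 498 of 537 values of other lists. A count of genes or lists could change and still be classed as the same, so the class does not mean an equal count. The median ratio of the mitosis list changed sign under centring and was also classed as the same. With an effect of at least 1, 2499 genes were called, 1091 higher and 1408 lower. At an adjusted p below 0.01 the mitosis list had 0 higher and 0 lower, and the difference from unsorted spheres passed for 438 genes, 193 higher and 245 lower. With a mean of at least 100 that difference was higher in 198 genes. The median ratio of the luminal list was -0.18 and reversed to 0.18 with a mean of at least 100. The cause of these changes was not tested. No paired analysis was possible because the tables hold group means only, and for the same reason no library could be left out in turn. The depth of each library is unknown, so no interval for counting error is given.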

Other observations

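Other signalling genes were mixed in the authors' deposited table, where 18.9% of all listed genes rose and 18.5% fell. Of 21 ErbB ligands and MAPK feedback genes 4 rose and 8 fell: the ligands Areg and Btc rose (Areg 315 in Myc-ER PKH-negative cells against 47.7 in uninfected PKH-negative cells), while the ligand Tgfa fell (ratio -2.38). Of 16 IGF genes 3 rose and 6 fell, with the mRNA-binding protein gene Igf2bp1 higher (2.34) and the ligand Igf2 lower (-2.51). Of 26 listed imprinted genes, a list chosen after the values were seen, 6 rose and 5 fell; Dlk1, Rian and Mirg, neighbours on chromosome 12, rose, while Meg3, between them, had means of 8618 with Myc-ER and 2255 without and did not pass (adjusted p = 0.0938). All 24 cholesterol synthesis genes had ratios below 0 (median -0.66), but only Sc5d fell by the adjusted p.

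Shorter genes had slightly higher fold changes. In the shortest 2701 of the genes with an exon length, the median of the authors' log2 fold changes was 0.14 and 23.2% rose, and in the longest 2700 it was -0.01 and 14.6% rose. In unsorted spheres the medians of the same measure were -0.03 for the shortest and 0.02 for the longest. The median exon length was 2.01 kb for cytosolic ribosomal proteins and 4.45 kb for all these genes, and the part of length in the ribosomal protein result was not tested.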
